A study of Homo sapiens with 12 samples.

Results

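OE33 is a cell line from an adenocarcinoma of the esophagus that arose in Barrett's mucosa, and the comparison described here asked which genes differ in it when STAT3 is targeted by siRNA. It uses 6 of the 12 arrays of the series, chosen by their titles: 3 of OE33 cells given a STAT3 siRNA and 3 of OE33 cells given a control siRNA. The STAT3 siRNA was a pool of 4 sequences, given at 100 nM in 2 transfections with the reagent DharmaFECT. The control cells had a Silencer negative control siRNA by the same route, which other labels call a scrambled vector. RNA was taken 72 h after the first transfection, and the design text calls the 3 cultures of a group independent experiments. The pool and the control siRNA are different products, so the targeting of STAT3 and other effects of the pool's sequences cannot be told apart. Untreated cells were not analysed here. The other 6 arrays hold the squamous carcinoma line OE21, which was transfected with another reagent, siPORT NeoFX, so line and reagent cannot be told apart. All arrays carry 1 array identifier, and a slide batch could not be tested. Each array, an Illumina expression BeadChip, measured the RNA of a whole culture, in which fewer cells that use a gene and less RNA per cell cannot be told apart.

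STAT3 is a transcription factor that waits in the cytoplasm until a cytokine or growth factor receptor is engaged. Cytokines of the IL-6 family act through the shared receptor chain IL6ST and Janus kinases (JAK1, JAK2, TYK2), which phosphorylate STAT3. The phosphorylated protein pairs up, enters the nucleus and binds DNA at palindromes of the form TTCNNNGAA. Its textbook targets include SOCS3, which shuts the receptor off again, survival genes such as MCL1 and BCL2L1, and cell cycle genes such as CCND1 and MYC. In esophageal and other carcinomas STAT3 is often studied as a driver of growth and survival.

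STAT3 itself was read first, on 3 probes, as log2 of normalised probe intensity. The brightest probe read 9.10, 8.87 and 9.05 on siRNA arrays 1 to 3, against 9.04, 10.26 and 9.36 on control arrays 1 to 3. Control 2 stood far above the other 5 arrays, and control 1 lay among the siRNA arrays, so the groups overlapped. The log2 fold change was -0.55 (SE 0.30), which leaves 68.4% of the control level with a 95% confidence interval of 42.0% to 111.5%. Without control 2 it was -0.19, or 87.4% of the control level (67.7% to 112.9%).

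The second STAT3 probe read 7.91, 7.39 and 7.49 on the siRNA arrays, against 7.53, 8.36 and 7.76 on the control arrays. These groups overlapped as well, and the fold change of -0.28 (SE 0.25) was -0.05 without control 2. The third probe, annotated to a different STAT3 transcript, read 7.15, 7.21 and 7.04 on the siRNA arrays, against 7.59, 7.90 and 7.54 on the control arrays. Here the highest siRNA array was still below the lowest control array. Its fold change was -0.55 (SE 0.16), leaving 68.5% (53.2% to 88.3%), and -0.43 without control 2, leaving 74.1% (60.5% to 90.7%). In a limma fit of every probe by itself, all 3 STAT3 probes had an adjusted p of 0.986. STAT3 therefore had no call on any probe, and the targeted gene does not by itself check the labels of these 6 arrays. In OE21 cells the same probes gave -2.124, -1.999 and -2.001 in this order, and the difference of the effects, OE33 minus OE21, was 1.58 (95% confidence interval 0.69 to 2.46), 1.71 (1.05 to 2.38) and 1.46 (0.84 to 2.07). At the gene level this difference had a limma adjusted p of 0.574 over 12322 genes.

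**Figure D1:**
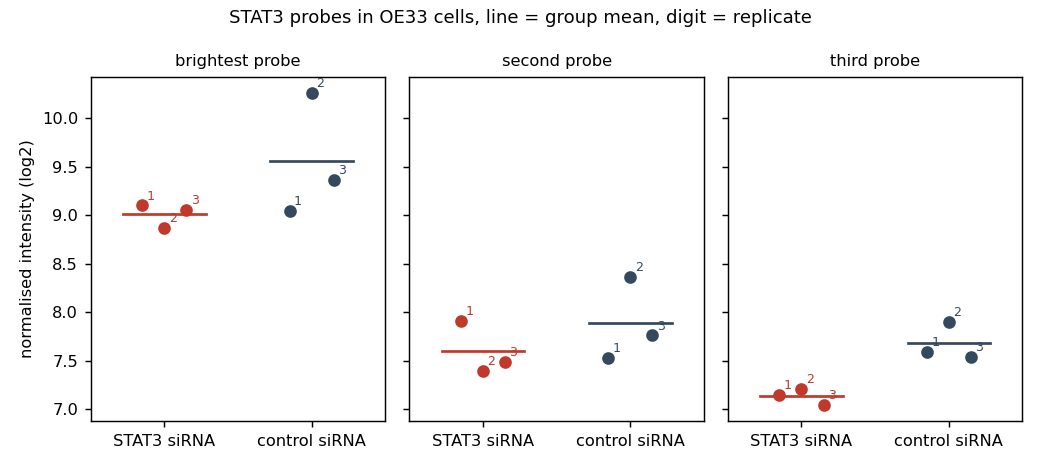
Normalised log2 intensity of the 3 STAT3 probes on each OE33 array, with STAT3 siRNA on the left and control siRNA on the right of each panel. Points are arrays numbered by replicate, and lines are group means. On the third probe the siRNA arrays (7.04 to 7.21) lie below the control arrays (7.54 to 7.90), while on the other panels the groups overlap.

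Control 2 differed from the other 5 arrays over many genes. On it 745 of the 10634 genes tested lay more than 1 log2 unit from the mean of the other arrays, 441 higher and 304 lower, against 17 to 35 genes on any other array. The first principal component of the 6 arrays held 58.4% of the variance and set control 2 (score 47.1) apart from the rest (-14.2 to -0.16). Its lowest correlation with another control array across probes was 0.960, while siRNA arrays correlated with each other at 0.988 or more. Between 18034 and 18721 of 47323 probes were detected per array, and control 2 with 18199 lay inside that range. Leaving it out moved most list genes described below: of 540 measured, 216 took the other sign without control 2, 227 kept their sign but changed in size by over 1.5 times, and 97 did neither. Values without control 2 therefore stand beside many of those below. With 2 controls left, groups fall apart more readily, on the higher side for 997 of the 10634 genes (9.38%) and on the lower side for 1119 (10.5%).

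**Figure D2:**
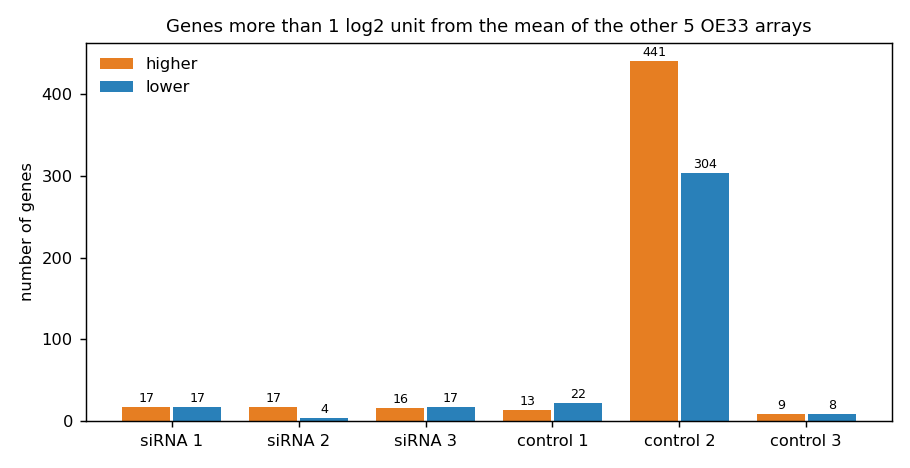
Number of genes, of 10634 tested, that lie more than 1 log2 unit above (orange) or below (blue) the mean of the other 5 OE33 arrays, for each array. Control 2 has 441 higher and 304 lower genes, and every other array has at most 22 in either direction.

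The 10 genes on which control 2 departed most were DEFB103A, SPRR2D, OLR1, SPRR2F, SFTA1P, PSG4, MFHAS1 and SPRR2A, which were higher on it, and ANXA10 and CALB2, which were lower. DEFB103A encodes an antimicrobial peptide of epithelia, and the SPRR2 genes encode proteins of the cornified envelope of squamous cells. DEFB103A read 4.49, 5.97 and 4.84 on the siRNA arrays, against 5.328, 8.995 and 5.483 on the control arrays. ANXA10, an annexin of gastric-type epithelium, read 8.46, 8.20 and 8.72 on the siRNA arrays, against 8.89, 5.69 and 8.93 on the control arrays. Probes of SPRR2A, SPRR2D and SPRR2F, and those of DEFB103A and PSG4, target near-identical paralogs, and which member a probe measured is uncertain. For 7 of the 10, siRNA 2, which carries the same replicate number, was the siRNA array farthest in the direction of control 2. Among the 441 genes higher on control 2, siRNA 2 was the highest siRNA array for 309 (70.1%), and among the 304 lower ones it was the lowest for 177 (58.2%). Of the 20 largest fold changes between the groups, in either direction, 11 belonged to genes on which control 2 departed by more than 1 log2 unit.

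Over all genes, no expression difference between STAT3 siRNA and control siRNA passed the threshold in OE33. Limma called 0 of 10634 genes at an adjusted p under 0.05 (0%), and the smallest adjusted p was 0.991. At an unadjusted p under 0.05 there were 292 genes (2.75%), 127 higher (1.19%) and 165 lower (1.55%) after the STAT3 siRNA. All 3 siRNA arrays lay above all 3 control arrays for 375 genes (3.53%), and below them for 446 (4.19%). Without control 2, 523 genes had an unadjusted p under 0.05 (4.92%), again with 0 called. Its removal also turned the sign of many differences, and 7158 genes (67.3%) kept theirs.

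Most genes had narrow intervals. The 95% confidence interval of the log2 fold change lay within -1 to 1 for 9500 genes (89.3%), and its median half-width was 0.43. Without control 2 the median half-width was 0.34. Only 5 genes had a fold change of 1 log2 unit or more in size, and on 3 of them control 2 departed by more than 1 unit. With 3 arrays against 3, an exact permutation test of a single value cannot give a p below 0.1.

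**Figure D3:**
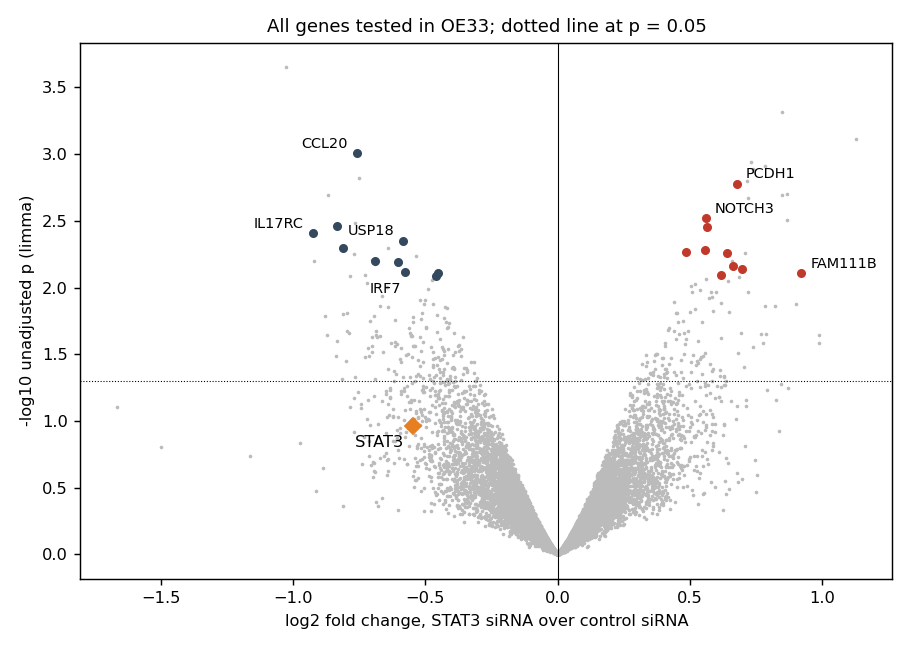
Log2 fold change (STAT3 siRNA over control siRNA, horizontal axis) against -log10 of the unadjusted limma p (vertical axis) for 10634 genes in OE33. Red and blue points are the 10 higher and 10 lower genes with the smallest p among those detected on all 6 arrays, and the diamond is STAT3. No gene has an adjusted p under 0.05.

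The genes with the smallest p are described by value, since 0 of them passed (limma adjusted p = 0.991 for each). Among genes lower after the siRNA and detected on all 6 arrays, CCL20 came first, a chemokine that draws CCR6-bearing lymphocytes and dendritic cells to epithelia. CCL20 read 5.08, 4.90 and 5.18 on the siRNA arrays, against 5.78, 5.95 and 5.71 on the control arrays, a fold change of -0.76 (SE 0.14) and of -0.69 without control 2. IL17RC, a subunit of the receptor for IL-17, read 5.32, 5.30 and 5.45, against 5.88, 6.75 and 6.21 in the controls (-0.93, SE 0.22, and -0.69 without control 2). USP18, which removes the ubiquitin-like ISG15 from proteins and restrains interferon signalling, read 6.05, 6.14 and 5.93, against 6.53, 6.54 and 6.81 in the controls (-0.58, SE 0.14).

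IRF7, a transcription factor of the interferon response, was the brightest interferon gene among these. It read 8.55, 8.41 and 8.38 on the siRNA arrays, against 8.76, 9.19 and 9.11 on the control arrays (-0.58, SE 0.16, and -0.49 without control 2). HOOK1, a cargo adaptor on microtubules, read 8.04, 7.95 and 7.65, against 8.47, 8.85 and 8.38 in the controls (-0.69, SE 0.18). The others in this group were TTLL11, a tubulin-modifying enzyme (-0.83), PATJ, a scaffold of tight junctions (-0.81), the actin-binding caldesmon CALD1 (-0.60), DDAH2 (-0.46) and STUM (-0.45). In all 10 the siRNA arrays lay below the control arrays, with and without control 2.

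Among genes higher after the siRNA and detected on all 6 arrays, PCDH1, a protocadherin of epithelial contacts, had the smallest p. PCDH1 read 6.38, 6.22 and 6.26 on the siRNA arrays, against 5.48, 5.77 and 5.57 on the control arrays (0.68, SE 0.14, and 0.76 without control 2). NOTCH3, a receptor for ligands on neighbouring cells, read 7.36, 7.35 and 7.46, against 6.80, 6.75 and 6.94 in the controls (0.56, SE 0.13, and 0.52 without control 2). PRRC2C, an RNA-binding protein of stress granules and the brightest of this group, read 9.15, 9.35 and 9.02, against 8.59, 8.55 and 8.70 in the controls (0.56, SE 0.14).

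FAM111B, a protease, had the largest fold change of the group. It read 6.52, 6.32 and 6.58 on the siRNA arrays, against 5.74, 4.98 and 5.95 on the control arrays (0.92, SE 0.25, and 0.63 without control 2). The kinase gene MAP3K21 (0.57), RWDD2B (0.48), the long noncoding RNA LINC02693 (0.64), the thymosin gene TMSB15B (0.66), the adenylate kinase gene AK6 (0.70) and MTCL2, which binds microtubules (0.62), completed it. In all 10 the siRNA arrays lay above the control arrays, as for 375 of all 10634 genes (3.53%), and these 10 were also picked by p.

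These 20 genes were mostly dim, and several rest on 1 probe of a pair. The arrays began to detect probes at 4.48 to 4.59 log2 units, the median level of all genes tested was 7.95, and 13 of the 20 averaged under 6. Each of the 20 kept its sign when any single array was left out, but groups that do not overlap make that certain, so it is no check. The second probe of IL17RC gave -0.12 (SE 0.29), that of IRF7 -0.07 (SE 0.41) and that of TTLL11 -0.33 (SE 0.17), with overlapping groups. The second probe of CALD1 gave 0.37 (SE 0.25), in the other direction, and that of MAP3K21 gave -0.08 (SE 0.26). For AK6 it gave 0.17 (SE 0.18) and for TMSB15B 0.16 (SE 0.26). The probes of USP18, TMSB15B and AK6 could also read close copies or overlapping genes (USP41, TMSB15A and TAF9), and their values are uncertain for that reason.

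The largest fold changes among genes whose groups did not overlap belonged to OGN, CCDC74B, FAM111B, RARRES1 and TSLP on the higher side, and to SPRR2D, C17orf75, IL17RC, FBXO36 and PEX6 on the lower side. TSLP, a cytokine that epithelia release toward dendritic cells, was detected on all 3 siRNA arrays and on 0 control arrays. Its ratio of group means was 1.83-fold higher after the siRNA, and that of the proteoglycan gene OGN, detected in the same pattern, was 2.18-fold higher. The undetected control values of TSLP lay above the dimmest detected signal of their arrays. Its figure is therefore the fitted ratio itself, 182.6% of the control level (131.7% to 253.2%). The fit gave OGN nearly the same value as this ratio of means, at 218.3% (156.6% to 304.4%). PEX6, which recycles the peroxisomal import receptor, was detected on 3 control arrays and on 0 siRNA arrays, and was 1.77-fold lower by this ratio. For these ratios an undetected probe was put no lower than the dimmest detected signal of its array. They leave out the spread between arrays and are not lower limits of the change. SPRR2D read 5.62, 5.83 and 5.98 on the siRNA arrays, against 6.15, 9.63 and 6.64 on the control arrays. Its fold change of -1.66 (SE 0.82) was the lowest of all genes tested and was -0.58 without control 2, and its near-identical copies keep it uncertain. That of CCDC74B was 0.99, and 0.55 without control 2, and that of RARRES1 0.87, and 0.39 without it. The second probe of RARRES1 gave 0.23 (SE 0.25), with overlapping groups.

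In all, 23 genes were detected on 3 siRNA and 0 control arrays, and 31 on 3 control and 0 siRNA arrays. By smallest p the first group was led by FKBP1B, which binds calcium release channels (1.61-fold higher by the same ratio of means), OGN, the copine gene CPNE2 (1.57-fold), the antisense RNA HPN-AS1 (1.65-fold) and RNF113B (1.498-fold). The second was led by C17orf75 (1.86-fold lower by that ratio), CTAGE15 (1.81-fold), OR2W5P (1.36-fold), MORF4L2-AS1 (1.55-fold) and the F-box gene FBXO36 (1.82-fold). Each had a limma adjusted p of 0.991. For C17orf75 the 6 values were 4.65, 4.39 and 4.33 on the siRNA arrays, against 5.58, 5.56 and 5.31 on the control arrays, near the detection limit. Its fold change of -1.03 was -0.30 in its weakest alternative setting. Genes detected in only 1 group, TSLP, OGN and PEX6 among them, passed the detection filter through that group alone. The gap between their groups follows in part from this choice and is no support for a change.

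The machinery that activates STAT3 was measured next, beginning with its ligands. Of 16 ligand genes on the array only 6 were detected, and IL6, IL11, OSM and 7 others were not. TGFA, a ligand of EGFR, was among the brighter ones. It read 10.23, 10.83 and 10.45 on the siRNA arrays, against 10.36, 10.73 and 10.37 on the control arrays (0.02, SE 0.20, and 0.14 without control 2). LIF, a member of the IL-6 family, read 7.17, 7.22 and 7.14, against 7.23, 7.42 and 7.23 in the controls. Its siRNA arrays lay just below the control arrays, but the fold change was -0.12 (SE 0.13), and -0.05 without control 2. IL22 (-0.49, SE 0.31), CTF1 (0.24, SE 0.19), LEP (-0.13) and IL10 (-0.01) overlapped between groups. Without control 2 they gave -0.30, 0.42, -0.11 and -0.16 in this order, and the siRNA arrays of CTF1 (6.22 to 6.27) then lay above controls 1 and 3 (5.947 and 5.709).

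Of 18 receptor genes on the array 11 were detected, and IL6R, LIFR and CNTFR were among the 7 that were not. IL6ST, the shared signalling chain gp130, read 8.22, 8.68 and 8.50 on the siRNA arrays, against 8.56, 7.42 and 8.41 on the control arrays. Only control 2 was low, and the fold change of 0.33 (SE 0.31) was -0.02 without it. The growth factor receptors ERBB2 and MET were bright on every array and nearly level. ERBB2 read 11.82, 12.03 and 11.65 on the siRNA arrays, against 11.77, 11.91 and 11.86 on the control arrays (-0.01, with a 95% confidence interval of -0.36 to 0.33). MET gave 0.03 (-0.29 to 0.34). EGFR gave -0.18 (-0.79 to 0.43), and 0.10 without control 2. The 11 receptors had a median of 0.04, with 0 groups apart, and 45.5% of them kept their sign without control 2.

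The kinases that phosphorylate STAT3 gave fold changes between -0.19 and 0.17, and 33.3% of them kept their sign without control 2. JAK1, which pairs with IL6ST, read 7.92, 8.25 and 7.81 on the siRNA arrays, against 7.995, 7.382 and 8.098 on the control arrays (0.17, SE 0.23, and -0.05 without control 2). JAK2 gave -0.08 (SE 0.26), TYK2 -0.12 (SE 0.15) and the Src family kinases SRC, LYN and YES1 -0.19, -0.13 and 0.02. Without control 2 JAK2 gave 0.17, LYN -0.06 and YES1 -0.15. SRC read 9.20, 9.30 and 9.04 on the siRNA arrays, against 9.02, 10.09 and 9.03 on the control arrays, and without control 2 it gave 0.16 with the siRNA arrays above the controls. All 6 measured kinases had intervals within -1 to 1, and JAK3 and FYN were not detected.

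The other measured STAT genes overlapped between groups. STAT6, which serves IL-4 signalling, read 8.12, 8.02 and 8.08 on the siRNA arrays, against 8.12, 8.05 and 8.05 on the control arrays, a difference of 0.00 with a 95% confidence interval of -0.28 to 0.29. STAT5A gave -0.35 (SE 0.34), and 0.04 without control 2. STAT5B gave 0.17 (SE 0.27) and STAT4 -0.09 (SE 0.22), which were -0.03 and 0.12 without control 2.

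Feedback inhibitors of the pathway include the SOCS proteins, which block or degrade receptors and kinases, the PIAS proteins, which bind STATs in the nucleus, and phosphatases. SOCS3, itself a STAT3 target, read 5.68, 5.62 and 5.61 on the siRNA arrays, against 4.73, 5.93 and 5.37 on the control arrays. Its value was thus higher after the siRNA by 0.29 (SE 0.28), and by 0.59 without control 2. The groups overlapped through control 2, and the siRNA arrays lay above controls 1 and 3. SOCS7 read 6.96, 6.67 and 7.04, against 7.08, 7.65 and 7.08 in the controls (-0.38, SE 0.20). It was the only inhibitor whose groups did not overlap over all 6 arrays (6.67%, against 4.19% of all genes on the lower side). Its value was -0.19 without control 2.

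The phosphatase gene PTPN2, which dephosphorylates STAT proteins, had the smallest p of the inhibitors and read 6.87, 6.80 and 6.64 on the siRNA arrays, against 6.38, 6.05 and 6.72 on the control arrays (0.39, SE 0.19, and 0.22 without control 2). SOCS5 gave 0.40 (SE 0.21), SOCS1 -0.42 (SE 0.31, and -0.25 without control 2) and SOCS4 0.35 (SE 0.27, and 0.03 without it). PIAS3, the member that binds STAT3, gave 0.15 (SE 0.18), PIAS1 -0.10 (SE 0.13), PIAS2 0.08 (SE 0.19) and PIAS4 -0.19 (SE 0.14). The phosphatases PTPN1, PTPN6 and PTPN11 gave -0.17, -0.11 and 0.06, and SOCS2 and SOCS6 gave 0.06 and 0.00. Without control 2 PIAS1, PIAS2 and PIAS4 gave -0.04, -0.06 and -0.12, PTPN1, PTPN6 and PTPN11 gave -0.05, 0.06 and 0.10, and SOCS2 and SOCS6 gave -0.10 and 0.22. Of 15 inhibitors 9 lay above 0 and 6 below, with a median of 0.06, and 8 and 7 without control 2, with a median of 0.03. CISH was not detected.

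Textbook STAT3 targets are genes that the factor is known to control in other cells. Of 53 on the array, 35 were detected, and 0 were called. Their median log2 fold change was -0.07, with 15 above and 20 below 0, beside a median of -0.01 over all 10634 genes, with 5103 above and 5531 below. Without control 2 the median was -0.02, with 17 above and 18 below 0. Of the 35, 0 had groups apart on the higher side and 1 on the lower side (2.86%, against 4.19% of all genes). The 95% confidence interval lay within -1 to 1 for 31 of the 35 (88.6%, against 89.3% of all genes).

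**Figure D4:**
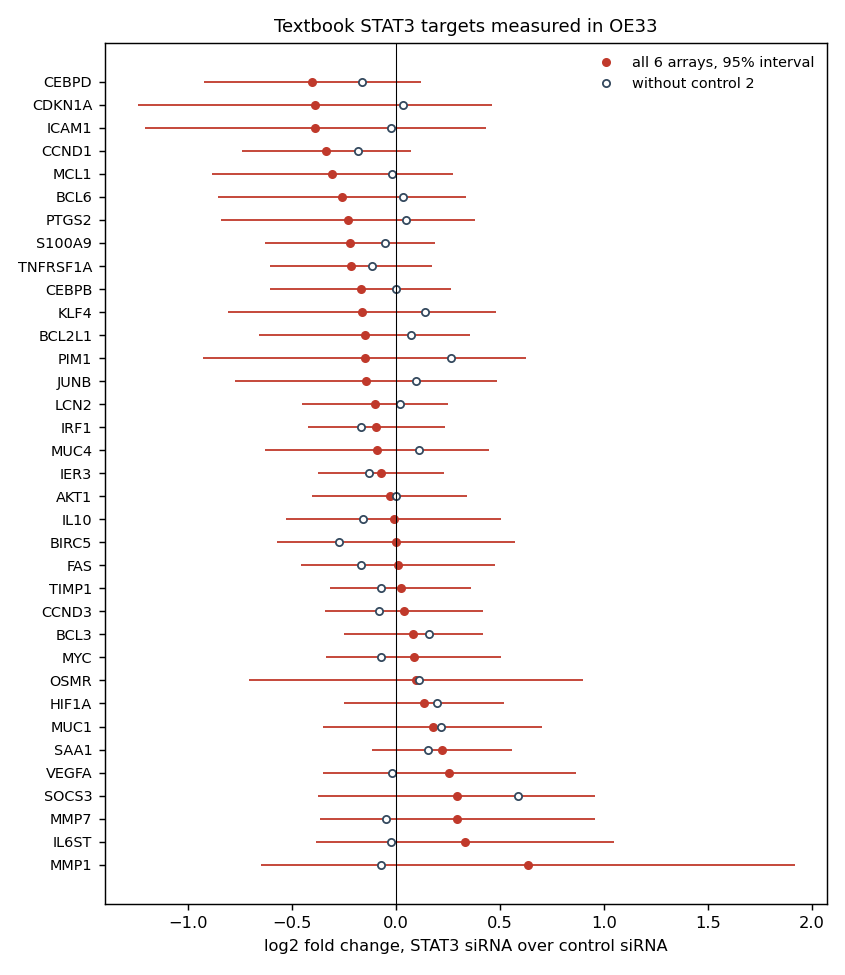
Log2 fold change (STAT3 siRNA over control siRNA) of the 35 measured textbook STAT3 targets in OE33, ordered by value. Red points with lines are values with 95% confidence intervals from all 6 arrays, and open points are values without control 2. The values run from -0.40 for CEBPD to 0.63 for MMP1, and every interval spans 0.

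CCND1, the cyclin D1 that starts the cell cycle, was the target with groups apart. It read 12.01, 11.95 and 11.81 on the siRNA arrays, against 12.03, 12.56 and 12.18 on the control arrays (-0.33, SE 0.17, and -0.18 without control 2). CEBPD, an acute phase transcription factor, read 9.36, 9.19 and 9.14, against 9.28, 10.11 and 9.50 in the controls (-0.40, SE 0.22, and -0.16 without control 2). MCL1, a survival protein of the BCL2 family, read 8.78, 8.93 and 8.84, against 8.84, 9.74 and 8.90 in the controls. With control 2 left out, its -0.31 (SE 0.25) became -0.02.

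Of the other well-known targets named here, all but MMP1 lay closer to 0 with all 6 arrays, and most took the other sign without control 2. MYC, a driver of growth, read 11.81, 11.94 and 11.62 on the siRNA arrays, against 11.85, 11.39 and 11.88 on the control arrays (0.09, with a 95% confidence interval of -0.34 to 0.51, and -0.07 without control 2). BCL2L1, which protects mitochondria from BAX and BAK1, gave -0.15 (-0.66 to 0.36), and 0.07 without control 2. The survivin gene BIRC5 read 9.390, 9.169 and 9.231 on the siRNA arrays, against 9.437, 8.714 and 9.637 on the control arrays. Its 0.00 (-0.57 to 0.57) became -0.27 without control 2, with the siRNA arrays below controls 1 and 3. The kinase gene PIM1 read 8.040, 8.090 and 7.899, against 7.772, 8.989 and 7.714 in the controls. Its -0.15 (-0.93 to 0.63) became 0.27 without control 2, with the siRNA arrays above controls 1 and 3. The secreted lipocalin LCN2 gave -0.10 (-0.45 to 0.25), and 0.02 without control 2, and the acute phase gene SAA1 gave 0.22 (-0.12 to 0.56). The widest interval was that of MMP1, a collagenase that read 8.15, 7.77 and 8.23 on the siRNA arrays, against 8.260, 6.005 and 7.989 on the control arrays. Its 0.63 (-0.65 to 1.92) rested on the low value of control 2 and was -0.07 without it.

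4 of the measured targets hold the STAT palindrome close to their start, and their upstream sequences are shown for the letters that the factor is known to recognise. The RefSeq promoter table of GRCh38.p14 held 26 of the 35 measured targets, and the 250 bases before each start were searched for TTCNNNGAA, which reads the same on both strands. The match is in capitals, and each window runs 5′ to 3′ on the strand of the gene and ends before its start. They lie at chr3:187745469-187745521 (BCL6, minus strand), chr19:10271020-10271078 (ICAM1, plus strand), chr5:132490864-132490922 (IRF1, minus strand) and chr3:195811930-195811965 (MUC4, minus strand).
BCL6: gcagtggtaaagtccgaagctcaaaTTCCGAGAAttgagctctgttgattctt
ICAM1: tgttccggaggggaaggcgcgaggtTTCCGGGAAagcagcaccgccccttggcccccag
IRF1: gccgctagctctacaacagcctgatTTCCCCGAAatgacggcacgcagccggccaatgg
MUC4: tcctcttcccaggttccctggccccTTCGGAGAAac

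The capitals begin 28 bases before the start in BCL6, 75 in ICAM1, 124 in IRF1 and 11 in MUC4. The palindrome stood in 4 of the 26 targets (15.4%), in 629 of 8596 tested genes with a promoter entry (7.32%) and in 2208 of 27305 genes of the table (8.09%). With fewer than 80% of the 35 targets in the table, the share of the list is void as a check. The STAT3 entry held none in its own window. A match is a description of the letters and does not show a bound site in OE33.

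The values of the genes behind these windows all moved with control 2. IRF1, a transcription factor induced by interferon through such a palindrome, read 10.60, 10.64 and 10.49 on the siRNA arrays, against 10.66, 10.52 and 10.83 on the control arrays (-0.09, with a 95% confidence interval of -0.42 to 0.23, and -0.17 without control 2, when the groups were apart). ICAM1, an adhesion molecule for leukocytes, read 5.61, 6.36 and 6.39, against 6.08, 7.23 and 6.20 in the controls (-0.39, SE 0.35, and -0.02 without control 2). BCL6, a transcriptional repressor, read 7.16, 7.35 and 7.10, against 7.07, 8.04 and 7.26 in the controls (-0.26, SE 0.25, and 0.03 without control 2). The mucin gene MUC4 read 8.73, 8.33 and 8.20, against 8.18, 8.91 and 8.44 in the controls (-0.09, SE 0.23, and 0.11 without control 2).

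Interferon-stimulated genes, which can respond to introduced RNA as well as to STAT signalling, leaned lower after the STAT3 siRNA. Of 44 measured members 13 lay above 0 and 31 below, with a median of -0.13. Without control 2 there were 15 above and 29 below, with a median of -0.05. Groups were apart on the lower side for 6 members (13.6%, against 4.19% of all genes) and on the higher side for 0, and 0 were called. The 6 were USP18, IRF7, OASL, MX1, EPSTI1 and IFITM3. Without control 2 the groups of IFI44 and SP110 were also apart on the lower side. Those of HERC6, IFIT5 and LAMP3 were then apart on the higher side. The shares of all genes were then 10.5% on the lower and 9.38% on the higher side. OASL, an antiviral protein related to the oligoadenylate synthetases, read 5.29, 5.62 and 5.54 on the siRNA arrays, against 5.83, 5.98 and 5.81 on the control arrays (-0.39, SE 0.15). MX1, a GTPase that traps viral nucleocapsids, read 10.33, 10.30 and 10.22, against 10.41, 11.02 and 10.66 in the controls (-0.42, SE 0.18, and -0.26 without control 2). The mean of the whole list sat at -0.12, -0.05 and -0.04 log2 units from the mean of the 6 arrays on the siRNA arrays, against -0.06, 0.23 and 0.04 on the control arrays, so that the groups overlapped and control 2 was highest.

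Sensors of introduced RNA also lay mostly below 0. Of 10 measured genes 9 lay below 0, with a median of -0.18, and 8 without control 2, with a median of -0.11. Over all 6 arrays 0 had groups apart in either direction. DHX58, a regulator of the RIG-I pathway, read 4.75, 4.36 and 5.30 on the siRNA arrays, against 5.25, 5.55 and 5.59 on the control arrays (-0.66, SE 0.25). IFIH1, a cytoplasmic RNA sensor, gave -0.20 (SE 0.14), the kinase gene EIF2AK2 -0.23 (SE 0.17, and -0.08 without control 2) and ZBP1 -0.21 (SE 0.21, and -0.34 without it). Among genes of the RNA interference machinery, only AGO2, the nuclease that siRNAs guide, had groups apart (8.33%, against 4.19% of all genes on the lower side). It read 9.53, 9.23 and 8.97 on the siRNA arrays, against 9.57, 10.27 and 9.78 on the control arrays (-0.63, SE 0.23, and -0.43 without control 2). The 12 genes of that list had a median of -0.05, and -0.02 without control 2. DICER1 gave -0.17, and AGO1 and DGCR8 gave -0.11 each, or -0.03 each without control 2.

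Genes of NF-kB and inflammatory cytokines had 6 of 22 members above 0 and 16 below, with a median of -0.06. This balance was 11 and 11 without control 2, with a median of 0.02. CCL20, given above, was the only member with groups apart (4.55%, against 4.19% of all genes on the lower side). NFKB2, a subunit of the alternative pathway, read 8.23, 8.58 and 8.20 on the siRNA arrays, against 8.30, 9.63 and 8.51 on the control arrays (-0.48, SE 0.34, and -0.07 without control 2). The inhibitor NFKBIA gave -0.19 (SE 0.14) and RELA -0.31 (SE 0.23, and -0.06 without control 2).

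The mitosis and S phase lists lay on opposite sides of 0 with and without control 2, while the median of the G1 genes was 0.04 with it and 0.03 without it. Of 47 mitosis genes 41 lay above 0 with all 6 arrays (median 0.15), but 18 without control 2 (median -0.03). Their mean level stood at 0.09, 0.04 and 0.11 log2 units from the 6-array mean on the siRNA arrays, against 0.12, -0.42 and 0.06 on the control arrays. BUB1B, a checkpoint kinase of the spindle, read 7.52, 7.36 and 7.30 on the siRNA arrays, against 7.13, 6.84 and 7.12 on the control arrays (0.36, SE 0.15, and 0.26 without control 2). The spindle motor KIF11 read 9.46, 9.56 and 9.56, against 9.32, 8.49 and 9.18 in the controls (0.53, SE 0.23, and 0.27 without control 2). They were the only mitosis genes with groups apart (4.26%, against 3.53% of all genes on the higher side). ANLN (0.31, and 0.18 without control 2) and NDC80 (0.34, and 0.12 without it) came next by p and overlapped.

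S phase genes did likewise, with 27 of 43 above 0 with all arrays (median 0.08) and 7 without control 2 (median -0.09). PCNA, the sliding clamp of DNA polymerase, read 12.28, 12.37 and 12.38 on the siRNA arrays, against 12.24, 11.62 and 12.24 on the control arrays (0.31, SE 0.19, and 0.10 without control 2). POLD1 gave -0.31 (SE 0.17, and -0.39 without control 2, when the groups were apart), PRIM1 0.36 (SE 0.24, and 0.10 without it) and CDC6 -0.26 (SE 0.20). Of the G1 genes RBL2, a relative of the retinoblastoma protein, had groups apart on the higher side (0.29, SE 0.14), RBL1 gave 0.43 (SE 0.31, and 0.06 without control 2) and the inhibitor CDKN1A -0.39 (SE 0.36, and 0.03 without control 2).

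Genes of cell death were evenly split over all 6 arrays. Of 24 in the BCL2 family and death receptor list, 12 lay above and 12 below 0 (median -0.03), with 0 groups apart, and 22 intervals lay within -1 to 1. Without control 2 there were 14 above and 10 below (median 0.03). BAK1, which opens mitochondria, gave -0.39 (SE 0.32), BBC3 0.15 (SE 0.16) and DIABLO -0.14 (SE 0.16). Without control 2 they gave -0.13, 0.28 and -0.01, and the groups of BBC3 were then apart. Of 20 p53 targets 6 lay above 0 (median -0.10), and 9 without control 2 (median -0.03). TP53I3 read 5.79, 6.38 and 6.23 on the siRNA arrays, against 6.34, 7.71 and 6.58 on the control arrays (-0.74, SE 0.36, and -0.33 without control 2). TP53INP1 gave -0.31 (SE 0.17), PLK2 -0.45 (SE 0.28, and -0.12 without control 2) and RRM2B 0.37 (SE 0.29).

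The unfolded protein response and ATF4 targets had the lowest median of the lists with at least 5 measured genes, at -0.21, with 35 of 36 members below 0. Control 2 held the highest mean level, at 0.51 log2 units from the 6-array mean, against -0.10 and -0.02 on the other control arrays and -0.18, -0.07 and -0.14 on the siRNA arrays. Without it the median was -0.05, with 27 below 0. Groups were apart on the lower side for 4 members (11.1%, against 4.19% of all genes). DNAJC3, a chaperone that restrains the kinase PERK, read 4.87, 5.74 and 5.25 on the siRNA arrays, against 5.83, 6.51 and 5.89 on the control arrays (-0.79, SE 0.27, and -0.57 without control 2). PHGDH, the entry enzyme of serine synthesis, gave -0.65 (SE 0.29, and -0.30 without control 2), and ATF6, a stress sensor of the endoplasmic reticulum, -0.30 (SE 0.14). XBP1 gave -0.29 (SE 0.17, and -0.15 without control 2) and overlapped, and the fourth member with groups apart was SEC61B, at -0.12, and -0.05 without control 2.

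**Figure D5:**
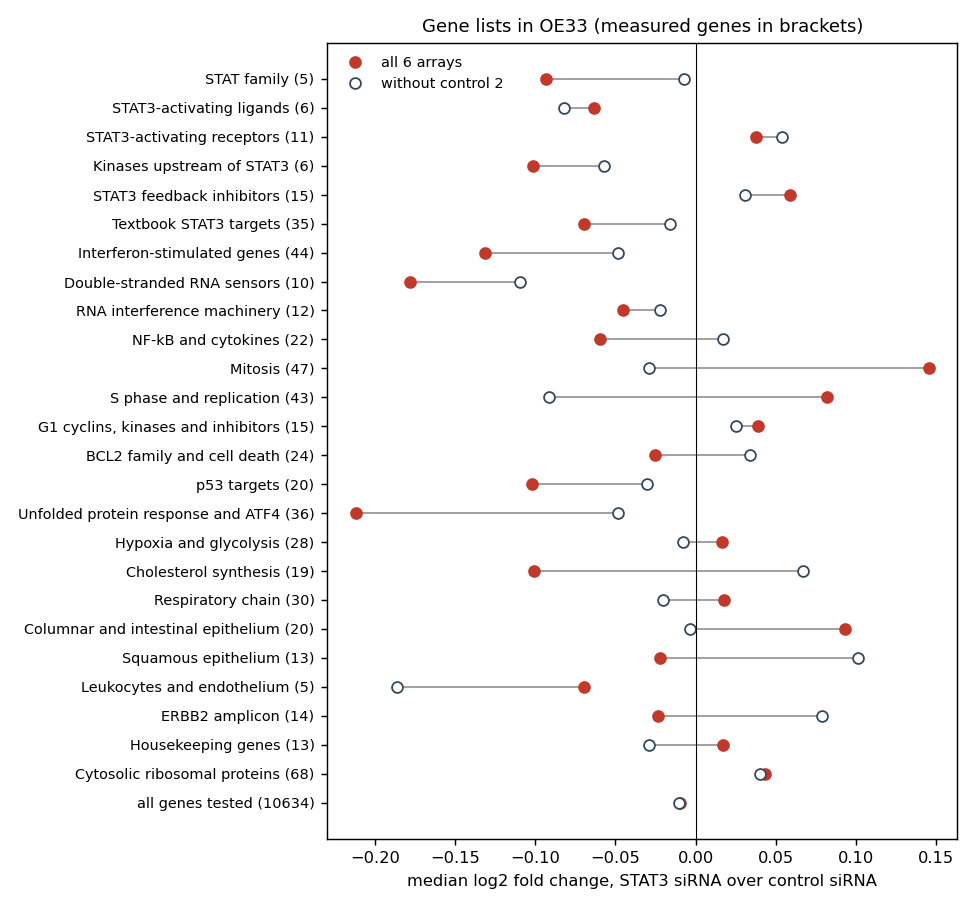
Median log2 fold change (STAT3 siRNA over control siRNA) of each gene list with at least 5 measured genes, and of all genes tested, in OE33. Filled points use all 6 arrays and open points leave out control 2. The lists of mitosis (0.15 and -0.03) and S phase (0.08 and -0.09) lie on opposite sides of 0, and the unfolded protein response moves between -0.21 and -0.05.

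Metabolic lists lay close to 0. Of 28 hypoxia and glycolysis genes 18 lay above 0 (median 0.02), and 14 without control 2 (median -0.01). EGLN3, an oxygen-sensing hydroxylase, read 5.65, 5.54 and 5.55 on the siRNA arrays, against 5.33, 5.34 and 5.04 on the control arrays (0.35, SE 0.14). PFKFB3 gave 0.41 (SE 0.27, and 0.09 without control 2), KDM3A 0.28 (SE 0.19, and 0.39 without it, when the groups were apart) and TPI1 0.19 (SE 0.15, and 0.11 without it). Cholesterol synthesis had 6 of 19 above 0 (median -0.10), but 15 without control 2 (median 0.07), and its enzyme FDPS gave 0.23 (SE 0.12) with groups apart. Of the 30 respiratory chain genes 21 lay above 0 (median 0.02), and 11 without control 2 (median -0.02), with every interval within -1 to 1 over all 6 arrays, and NDUFA1 gave 0.23 (SE 0.13).

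Of the ribosomal protein genes 85.3% kept their sign without control 2, against 67.3% of all genes. Of 68 measured genes 55 lay above 0, and 49 without control 2, with medians of 0.04 in both cases. Groups were apart on the higher side for 11 (16.2%, against 3.53% of all genes), and on the lower side for 1, RPL27A. The sizes were small: the largest of the 11 was RPL7, at 11.23, 11.19 and 11.32 on the siRNA arrays, against 11.02, 10.85 and 11.06 on the control arrays (0.27, SE 0.13). RPL30 gave 0.19 (SE 0.13), RPS21 0.21 (SE 0.15, and 0.11 without control 2) and RPL23A 0.19 (SE 0.13). Ribosomal protein genes have many processed pseudogenes that their probes could also read.

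The identity of the cells was read from epithelial markers. The keratins of simple epithelia KRT8, KRT18 and KRT19 were detected on all 6 arrays, KRT19 at 14.07 to 14.22, and the adhesion molecule EPCAM at 13.14 to 13.27. Of 36 columnar and intestinal markers on the array 20 were detected, among them CDX2, an intestinal transcription factor, while CDX1, VIL1 and the trefoil factors TFF1, TFF2 and TFF3 were not. KRT5 and KRT14, which define basal squamous cells, were not detected, and 13 of 22 squamous markers were. Of 23 fibroblast markers 3 were detected, with COL1A1 and COL1A2 below detection, and of 19 leukocyte and endothelial markers 5, with PTPRC and PECAM1 below detection. None of these 8 genes had groups apart. The mean level of the 3 fibroblast markers lay at -0.10, -0.09 and 0.26 log2 units from the 6-array mean on the siRNA arrays, against 0.11, -0.31 and 0.13 on the control arrays. That of the 5 leukocyte and endothelial markers lay at 0.14, -0.11 and 0.02, against 0.18, -0.36 and 0.13 on the control arrays.

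After the siRNA the columnar list had 13 of 20 members above 0 (median 0.09), and 10 without control 2 (median -0.0035). Its member CEACAM5, an adhesion molecule of intestinal epithelium, read 5.38, 5.17 and 5.67 on the siRNA arrays, against 4.49, 4.98 and 4.68 on the control arrays (0.69, SE 0.19, and 0.82 without control 2). HNF4G gave 0.43 (SE 0.24, and 0.17 without control 2), CEACAM1 -0.19 (SE 0.13) and CLDN4 -0.34 (SE 0.29, and 0.00 without control 2). Of 13 squamous genes 6 lay above 0 (median -0.02), and 9 without control 2 (median 0.10). GRHL3, a factor of barrier formation, was the only one with groups apart (7.69%, against 3.53% of all genes on the higher side). It gave 0.34 (SE 0.18), and 0.17 without control 2. KRT15 gave 0.27 (SE 0.18), SFN -0.42 (SE 0.39) and SPRR1A -0.46 (SE 0.46), which were 0.10, 0.08 and 0.10 without control 2. In the gene cluster around ERBB2, GSDMA, a pore-forming gasdermin, read 6.06, 5.57 and 5.91, against 5.44, 5.19 and 5.19 in the controls (0.57, SE 0.17). MIEN1 gave 0.21 (SE 0.13), STARD3 -0.26 (SE 0.20, and -0.075 without control 2) and FBXL20 0.22 (SE 0.18, and 0.05 without it), and the 14 genes of the cluster had a median of -0.02, and 0.08 without control 2.

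Whether OE33 responded unlike OE21 was tested as the difference of the siRNA effects, OE33 minus OE21. Limma called 0 of 12322 genes (0%), with 829 at an unadjusted p under 0.05 (6.73%). CCL20 gave -0.76 in OE33 and 0.41 in OE21, a difference of -1.16 (95% confidence interval -1.70 to -0.63, limma adjusted p = 0.457). IRF7 gave -0.58 in OE33 and 0.93 in OE21, a difference of -1.51 (-2.16 to -0.85, limma adjusted p = 0.457), and USP18 a difference of -0.96 (-1.495 to -0.429, limma adjusted p = 0.574). Interferon-stimulated genes had a median of -0.13 in OE33 and 0.61 in OE21, and the difference lay below 0 for 47 of 48 of them, with 19 at an unadjusted p under 0.05. Without control 2 of OE33 it lay below 0 for all 48, with 15 at that threshold, against 6.96% of all genes. The list's mean level on the OE21 arrays overlapped between groups, at 0.53, 0.54 and -0.05 on the siRNA arrays, against 0.06, -0.78 and -0.30 on the control arrays.

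Mitosis genes had a median of 0.15 in OE33 and -0.30 in OE21, with the difference above 0 for all 47, and for 43 without control 2. Their median difference was 0.53, and 0.32 without control 2. Over all 12322 genes the difference lay above 0 for 6023 and below 0 for 6299. Textbook STAT3 targets had a median of -0.05 over the 42 measured in this fit in OE33 and 0.15 in OE21, with a median difference of -0.27 and 2 at an unadjusted p under 0.05. No member of any list was called for the difference.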

How the data were processed

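Per the labels' protocols, total RNA went through a column kit (RNeasy Plus) and a Bioanalyser check before biotin-labelled cRNA was made with MessageAmp. The authors deposited a linear intensity for every probe and array, without normalisation between arrays, and next to it a detection p-value. Scanner, software and the way that p-value was made: not given in the sources used here. A second table that the authors deposited holds normalised intensity on a linear scale (array medians 106.4 to 107.2) by an unstated method, and it served as an alternative.

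Of 47323 probes, 4 with missing values were left out. Platform annotation gave 30111 probes 1 gene symbol, 8 several and 17200 none, and 30072 matched the GRCh38.p14 gene table by Entrez identifier, which changed 0 symbols. The neqc function of limma 3.58.1 in R 4.3.3 corrected background (inferred from the detection p-values, offset 16), quantile-normalised all 12 arrays and gave log2 values. A gene was tested when a probe had a detection p under 0.01 on at least 3 of the 6 OE33 arrays, and 10634 genes were. Where several probes passed (2779 genes), the gene took the probe brightest on average over the 12 arrays. Groups were compared with lmFit and eBayes (two-sided, 4 residual degrees of freedom, Benjamini-Hochberg over all genes), and SE and 95% confidence intervals are those of this fit. The difference between the lines came from 1 fit of all 12 arrays. Precision is limited by how many arrays there are.

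The arrays, the gene lists, the rule for named genes and the alternatives were chosen with earlier results of these data known, and the counts without control 2 were added after seeing the data. That rule named STAT3 and the pathway genes, the 4 members of each other list with the smallest p, the 10 higher and 10 lower genes with the smallest p among those detected on all 6 arrays, the 5 largest fold changes in each direction among genes whose groups do not overlap, up to 5 genes in each direction detected in only 1 group, and the 10 genes on which an array departs most. Other named list members were chosen after their values were seen. Groups are said to be apart where no siRNA array lies within the range of the control arrays. The fit was tested on simulated data with independent noise for each gene. They held no array that stood apart like control 2, so that test does not cover this feature.

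Replicate numbers are shared by the groups. Deviations of same-numbered arrays from their group means correlated across genes at 0.10, 0.34 and 0.14, each above 0.1. A replicate block was therefore run as an alternative, while the main fit did not pair the arrays. A pairing by number comes from these values and not from a label. It is weak: differently numbered arrays gave -0.293 to 0.196, with siRNA 3 closer to control 1 (0.196) and siRNA 1 closer to control 3 (0.121) than to their own numbers.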

Additional observations from a re-analysis of the deposited data

How the results depend on the processing

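No gene was called between the groups in OE33 under any setting tried, including every array left out in turn, each time by limma. The number of genes at an unadjusted p under 0.05 moved more: from 292 it became 188 with no background correction, 184 in the authors' normalised values, 680 with no detection filter (more genes tested), 582 with every probe tested by itself (more rows tested) and 1058 with array weights, which gave control 2 a weight of 0.147. Leaving out single arrays gave 191 (without siRNA 3) to 523 (without control 2), with 488 without control 1, and the cause was not tested. With the replicate block, 0 genes were called and 395 had an unadjusted p under 0.05. STAT3 was -0.55 with the block (limma adjusted p = 0.958), and the block changed no call. Over all alternatives STAT3 lay between -0.80 (without control 1) and -0.19 (without control 2), with limma adjusted p between 0.531 and 1.00. For the difference between the lines, array weights called 229 genes and every other setting 0. Its replicate block also called 0 genes, with 1104 at an unadjusted p under 0.05. The 35 genes named by smallest p over all genes, by largest fold change or by detection pattern kept their direction in the alternatives, on the probe reported. Their groups did not overlap, so leaving out or weighting arrays could not turn a sign, and the count is no check of stability. Second probes of CALD1 (0.37) and MAP3K21 (-0.08) gave the other sign, and so did 216 of 540 list genes without control 2, among them SPRR1A (0.10 against -0.46) and CDKN1A (0.03 against -0.39).

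Dim genes moved with the background setting. CEACAM5, at 0.69, was 0.19 when no background was removed and 0.21 in the values the authors normalised. DNAJC3, at -0.79, was -0.27 and -0.29 in the same settings. For genes named by smallest p or fold change, only the weakest of all their alternatives is given here. It was picked for being weakest, so a smaller value was near certain and is no check of the background setting. In its weakest alternative the brighter HOOK1 (-0.69) gave -0.52. The dimmer CCL20 (-0.76) gave -0.23, IL17RC (-0.93) gave -0.35 and OGN (1.13) gave 0.35. The medians of the mitosis, S phase, unfolded protein response and cholesterol lists moved when 1 array, control 2, was left out. The cause of these shifts was not tested.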
